A study of Homo sapiens with 6 samples.

Results

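MDA-MB-231 and MDA-MB-453 are breast cancer cell lines whose expression was compared here on 6 Illumina bead arrays, all 6 of the series: 4 arrays of MDA-MB-231 and 2 of MDA-MB-453, told apart by the array titles. MDA-MB-231 is an established hormone receptor-negative line of mesenchymal-like appearance, and MDA-MB-453 an established luminal-like line. In MDA-MB-231, hairpin shRNA-1 against SETDB1 gave 2 arrays labelled knockdown, set beside 2 control arrays. In MDA-MB-453, hairpin shRNA-3 gave 1 such array, set beside 1 control array. Every array therefore came from cells carrying a hairpin, whether against the histone methyltransferase SETDB1 or a control one, and the hairpin changed together with the line in the knockdown arm. Whether replicates were grown as separate cultures is not stated, and p-values therefore reflect the spread among these arrays alone, which may be technical. Each subtype is represented by 1 line, so features of these lines and features of mesenchymal-like or luminal-like tumours cannot be told apart. SETDB1 stood at 7.29 and 7.21 on the knockdown-labelled arrays of MDA-MB-231, 7.40 and 7.42 on its controls, and 8.73 and 8.98 on the knockdown-labelled and control arrays of MDA-MB-453, so within each line the arrays labelled knockdown lay only slightly below their controls.

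Epithelial cells hold to their neighbours through adherens junctions, tight junctions and desmosomes, build their intermediate filaments from keratins, and express surface genes under transcription factors such as the GRHL and OVOL families. In an epithelial-mesenchymal transition, repressors such as ZEB1 and SNAI2, which bind E-box motifs in promoters, silence epithelial genes, while vimentin, matrix proteins and matrix proteases are made. Luminal breast cells add a layer of their own, set by FOXA1, GATA3 and steroid hormone receptors, with secreted proteins such as PIP.

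Levels are given as normalised log2 intensities for the 13022 genes measured, and a difference is MDA-MB-231 minus MDA-MB-453, so that a positive one means higher in MDA-MB-231. Differences come with their standard error (SE) from a limma model with cell line and arm as additive terms over all 6 arrays. A gene is called higher or lower when its limma p-value, adjusted by Benjamini-Hochberg over the 13022 genes, is below 0.05. A gene is not detected on an array when its detection p-value is 0.05 or more. Where several probes of a gene were kept, the brightest stands for it, and its difference or fold holds for that probe alone. Other called probes gave much smaller differences for some genes, such as CRB3 (-1.11), ERBB3 (-0.82) and CD68 (1.01). For the named list members PKP3, ITGA3, GSTM2, HLA-F, KRT18, GRHL3, CTNNB1, ANXA11, CD44, TGFBR2, ITGB1, CALD1, ABCC11, COL8A1 and HSD17B11 another kept probe was not called. Where a gene was detected on no array of a line, its fold is a lower bound, set against the dimmest detected probe. Such a bound averages the arrays of both arms and need not hold in each arm. Between 19230 and 21238 of 48107 probes were detected per array, and the number of arrays limits the precision. The smallest p that an exact permutation test reaches for a single gene with 4 and 2 arrays is 0.0667, so smaller p-values rest on the spread shared between genes.

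The markers of both lines followed the cell line labels on the arrays. VIM, the intermediate filament protein vimentin of mesenchymal cells, stood at 14.31 and 14.38 on the knockdown-labelled arrays of MDA-MB-231, 14.45 and 14.37 on its controls, and 7.28 and 7.46 on the knockdown-labelled and control arrays of MDA-MB-453. Its difference was 7.01 ± 0.17 (adjusted p = 9.58e-07), and a second VIM probe gave 9.60. AXL, a receptor tyrosine kinase linked to invasion, stood at 13.06 and 13.02 on the knockdown-labelled arrays of MDA-MB-231, 13.06 and 13.52 on its controls, and 4.35 and 4.50 on the knockdown-labelled and control arrays of MDA-MB-453, and was at least 315-fold higher in MDA-MB-231. CAV1, the membrane coat protein caveolin-1, stood at 12.27 and 12.49 on the knockdown-labelled arrays of MDA-MB-231, 12.30 and 12.60 on its controls, and 4.41 and 4.78 on the knockdown-labelled and control arrays of MDA-MB-453, at least 187-fold higher. For these genes every MDA-MB-231 array lay far above both MDA-MB-453 arrays, and AXL and CAV1 were not detected in MDA-MB-453.

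RAB25, a small GTPase of epithelial recycling endosomes, stood at 4.50 and 4.59 on the knockdown-labelled arrays of MDA-MB-231, 4.38 and 4.42 on its controls, and 11.97 and 11.63 on the knockdown-labelled and control arrays of MDA-MB-453, at least 129-fold lower in MDA-MB-231. PIP, the prolactin-induced protein of apocrine breast cells, stood at 4.32 and 4.38 on the knockdown-labelled arrays of MDA-MB-231, 4.23 and 4.24 on its controls, and 11.31 and 10.76 on the knockdown-labelled and control arrays of MDA-MB-453, at least 75.8-fold lower. Neither was detected on any MDA-MB-231 array. KRT19, a keratin of simple epithelia, stood at 12.27 and 12.11 on the knockdown-labelled arrays of MDA-MB-231, 7.98 and 7.45 on its controls, and 12.81 and 12.78 on the knockdown-labelled and control arrays of MDA-MB-453. All 4 MDA-MB-231 arrays lay below both MDA-MB-453 arrays, but those labelled knockdown lay much closer to MDA-MB-453 than to the MDA-MB-231 controls. Its line difference was -5.07 among control arrays and -0.62 among arrays labelled knockdown, and -2.84 ± 0.86 across both (adjusted p = 0.0293). That call was lost under 7 of the alternatives tried, among them the fit without the arm term. It was also lost without either MDA-MB-231 control, and without the MDA-MB-453 control the difference was -0.62.

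**Figure D1:**
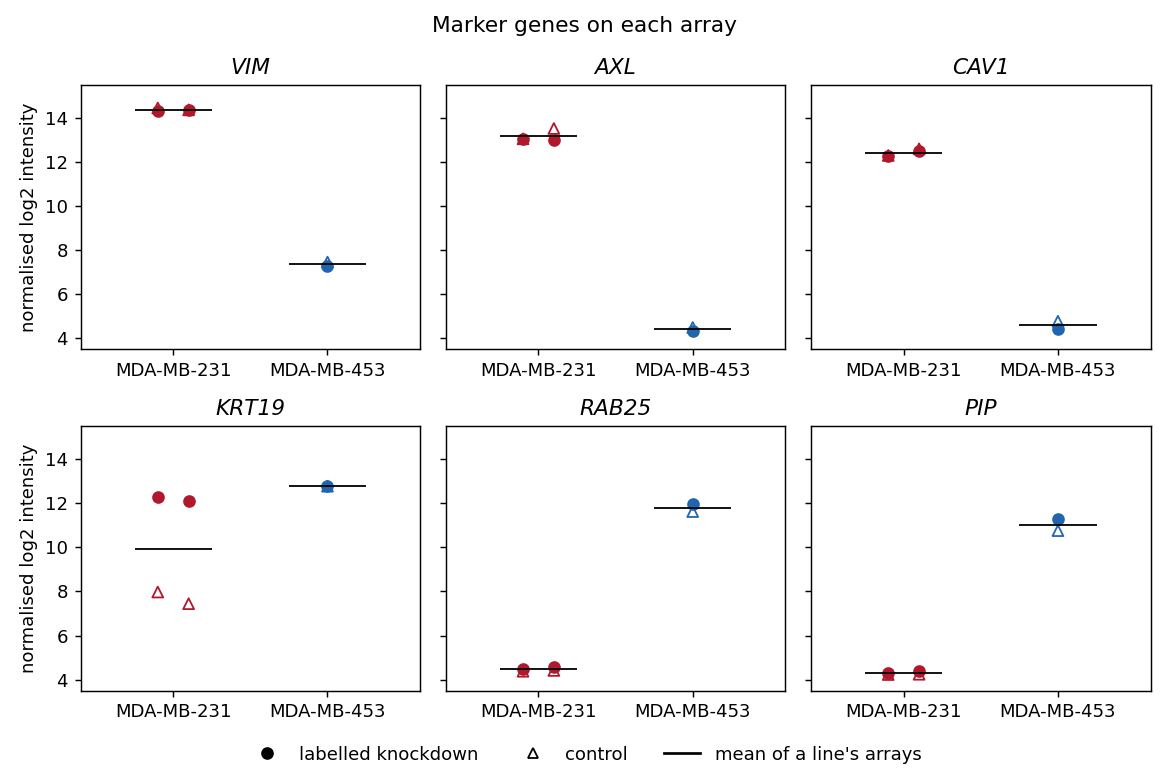
Normalised log2 intensity of 6 marker genes on each of the 6 arrays, with filled circles for arrays labelled knockdown, open triangles for controls and lines at the mean of a line's arrays. VIM, AXL and CAV1 are high in MDA-MB-231, RAB25 and PIP in MDA-MB-453, and the 4 KRT19 values of MDA-MB-231 split by arm.

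RAB25 and the transcription factor GRHL3, both detected in MDA-MB-453 and on no MDA-MB-231 array, are shown with their promoters because the lists below hold many epithelial genes that were lower in MDA-MB-231. CCN2, a secreted matrix-associated protein that is a textbook target of YAP and TEAD, is shown as a gene of the opposite pattern. The windows are 300 bases long, reach from upstream of the gene's start to just past it, come from RefSeq on GRCh38.p14, and are written 5′ to 3′ on the gene's strand. Capitals mark CAGGTG or its reverse complement CACCTG, an E-box bound by ZEB1 and SNAI factors, in the first pair, and GGAATG or its reverse complement CATTCC, the letters bound by TEAD factors, in the last one.
RAB25 (chr1:156060910-156061209, plus strand): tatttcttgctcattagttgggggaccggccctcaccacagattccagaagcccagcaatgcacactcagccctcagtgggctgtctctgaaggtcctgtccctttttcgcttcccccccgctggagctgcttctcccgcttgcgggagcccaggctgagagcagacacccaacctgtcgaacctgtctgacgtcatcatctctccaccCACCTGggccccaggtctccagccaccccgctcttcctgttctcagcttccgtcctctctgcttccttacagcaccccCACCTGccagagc
GRHL3 (chr1:24319107-24319406, plus strand): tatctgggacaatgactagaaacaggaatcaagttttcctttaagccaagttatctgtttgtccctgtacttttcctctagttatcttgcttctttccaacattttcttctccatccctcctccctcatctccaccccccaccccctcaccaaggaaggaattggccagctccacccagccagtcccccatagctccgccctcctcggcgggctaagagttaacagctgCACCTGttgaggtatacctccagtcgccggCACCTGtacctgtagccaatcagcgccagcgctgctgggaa
CCN2 (chr6:131951323-131951622, minus strand): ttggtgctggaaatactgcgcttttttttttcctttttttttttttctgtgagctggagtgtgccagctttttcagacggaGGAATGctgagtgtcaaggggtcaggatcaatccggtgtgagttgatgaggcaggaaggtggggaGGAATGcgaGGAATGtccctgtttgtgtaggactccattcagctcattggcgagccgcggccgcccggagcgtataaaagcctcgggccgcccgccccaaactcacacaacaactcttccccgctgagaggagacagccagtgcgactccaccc

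RAB25 and GRHL3 held 2 E-box matches each, and CCN2 held 3 TEAD matches. These are chosen examples and need not be typical of their lists, and AXL, higher in MDA-MB-231, also held 1 E-box match. Of the called members of the epithelial surface list, described further below, 16 had a promoter in the table and 7 of these (43.8%) held the E-box on either strand, against 18.3% of the 10357 promoters of all genes tested. In the luminal list, also lower in MDA-MB-231, 6 of 18 called members (33.3%) held the E-box, and in the YAP and TEAD list, higher in MDA-MB-231, 3 of 12 (25%). The share was 16.5% over 2436 genes called higher in MDA-MB-231 and 22.1% over 2596 called lower. Of 12 called members of the YAP and TEAD list with a promoter, 6 (50%) held the TEAD letters, against 10.8% over all genes tested. The AP-1 motif TGANTCA and the FOXA motif TGTTTAC were searched in the same way and stood in 4.69% and 2.29% of the promoters of all genes tested. Of 18 called members of the luminal list with a promoter, 2 held the FOXA letters. The AP-1 letters stood in 3 of 16 called members of the inflammatory list (18.8%), 3 of 18 of the luminal list (16.7%) and 2 of 12 of the YAP and TEAD list (16.7%). A match is a run of letters and says nothing of binding.

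The comparison of the lines called 6202 of 13022 genes (47.6%), with 2956 higher (22.7%) and 3246 lower (24.9%) in MDA-MB-231. Of these, 2031 were higher and 2124 lower by 2-fold or more, and 434 higher and 363 lower by 8-fold or more. The arrays of the lines did not overlap for 7313 genes (56.2%), with all MDA-MB-231 arrays above for 3486 and below for 3827. There were 744 genes (5.71%) detected on all 4 MDA-MB-231 arrays and on neither MDA-MB-453 array, and 432 (3.32%) detected on both MDA-MB-453 arrays and on no MDA-MB-231 array. A gene detected in 1 line passes the detection filter through that line alone, so the filter favours genes that differ, here and in the lists below. Among the 8952 genes with a probe detected on all 6 arrays, 49.7% were called.

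The 15 largest differences in favour of MDA-MB-231 ranged from CAVIN1 to CMTM7. CAVIN1, which with caveolins shapes the caveolar coat, stood at 13.07 to 13.29 in MDA-MB-231, against 4.30 and 4.44 in MDA-MB-453, at least 315-fold higher. YBX3, a cold-shock domain protein that binds RNA, was at least 299.9-fold higher, and RAC2, a small GTPase best known from blood cells, at least 252-fold. ANXA1, a membrane-binding annexin, was at least 212-fold higher, and the hyaluronan receptor CD44, at 12.43 to 12.87 in MDA-MB-231, against 4.35 and 4.25 in MDA-MB-453, at least 224-fold. LDHB, a subunit of lactate dehydrogenase, was at least 223-fold higher and the chemokine CXCL8 at least 210.0-fold.

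TGFBI, a matrix protein induced by TGF-beta, was at least 207-fold higher in MDA-MB-231, the membrane protein EMP1 at least 177-fold, and PLAU, the urokinase protease, at least 148-fold. TGFBR2, the type II receptor for TGF-beta, was at least 133-fold higher, at 11.61 to 12.17 in MDA-MB-231, against 4.50 and 4.61 in MDA-MB-453. CCN2 was detected on 1 of the 2 MDA-MB-453 arrays and stood at 11.34 to 13.01 in MDA-MB-231, against 4.56 and 4.92 in MDA-MB-453, a difference of 7.49 ± 0.27. CMTM7, a membrane protein of the chemokine-like factor family, differed by 7.20 ± 0.18 and was detected on all 6 arrays. These genes, with AXL and CAV1, make up the 15, and each had an adjusted p of 4.22e-06 or lower.

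The 15 largest differences in favour of MDA-MB-453 ranged from IGFBP5 to FOXA1. IGFBP5, a binding protein of insulin-like growth factors, stood at 4.45 to 4.79 in MDA-MB-231, against 13.69 and 13.19 in MDA-MB-453, a difference of -8.84 ± 0.21, and was detected on 1 of 4 MDA-MB-231 arrays. FGFR4, a fibroblast growth factor receptor, stood at 4.33 to 5.12 in MDA-MB-231, against 13.45 and 13.09 in MDA-MB-453, a difference of -8.62 ± 0.26, detected on both MDA-MB-231 controls and on neither array labelled knockdown. MUCL1, a small mucin of breast tissue, was at least 281-fold lower in MDA-MB-231, the aldehyde dehydrogenase ALDH3B2 at least 192-fold and CLCA2, a membrane protein of epithelia, at least 151-fold. CKMT1A and CKMT1B, near-identical copies of a mitochondrial creatine kinase, were lower by at least 235-fold and at least 110.3-fold. A probe for either copy may pick up both, and it is uncertain which of them differs.

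MGP, the matrix Gla protein that inhibits calcification, stood at 4.63 to 4.90 in MDA-MB-231, against 12.68 and 12.43 in MDA-MB-453, a difference of -7.79 ± 0.17, and CALML5, a calmodulin-like protein of skin, differed by -7.47 ± 0.20. CBS, which makes cystathionine from homocysteine, was at least 111-fold lower in MDA-MB-231, and GSTT1, a glutathione transferase, at least 107-fold. PHGDH, the first enzyme of serine synthesis, stood at 8.33 and 8.11 on the knockdown-labelled arrays of MDA-MB-231, 4.81 and 5.05 on its controls, and 14.35 and 13.47 on the knockdown-labelled and control arrays of MDA-MB-453, so that the MDA-MB-231 arms differed from each other as well as from MDA-MB-453. ID2, an inhibitor of basic helix-loop-helix factors, differed by -6.95 ± 0.25. FOXA1, the pioneer factor of luminal cells, stood at 4.43 and 4.55 on the knockdown-labelled arrays of MDA-MB-231, 8.01 and 8.53 on its controls, and 13.44 and 13.17 on the knockdown-labelled and control arrays of MDA-MB-453. It was not detected on the MDA-MB-231 arrays labelled knockdown but clearly detected on the MDA-MB-231 controls, and its difference across the arms was -6.92 ± 0.78 (adjusted p = 3.53e-04). RAB25 completes the 15.

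**Figure D2:**
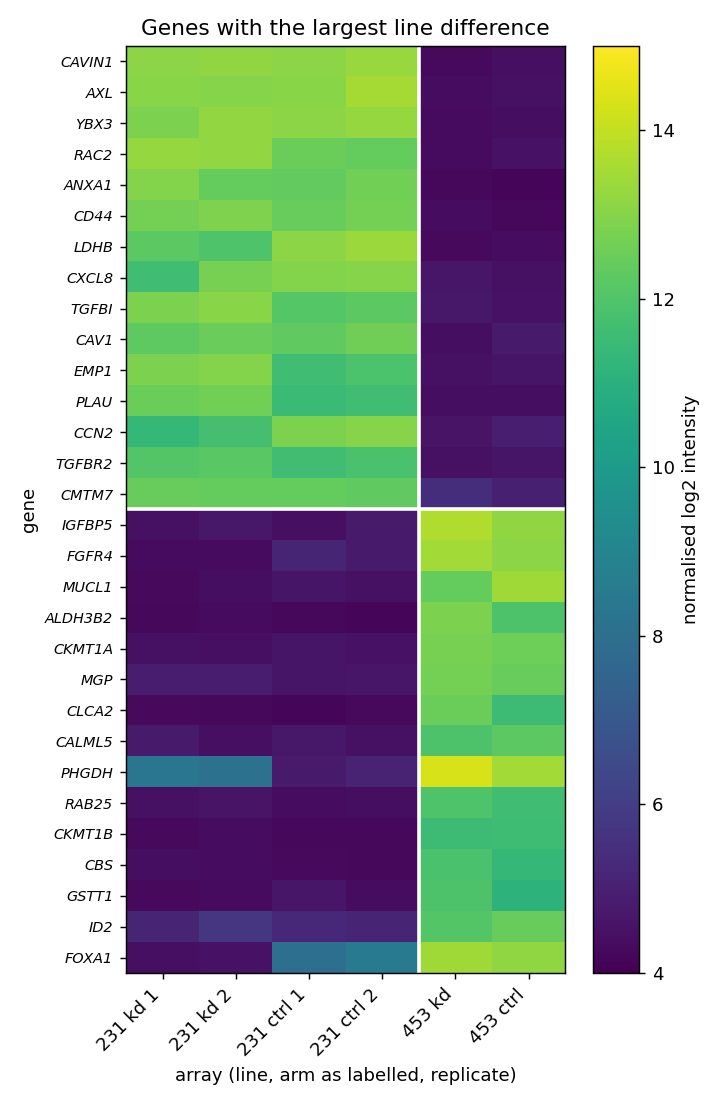
Normalised log2 intensity of the 15 genes with the largest line difference in each direction (rows) on the 6 arrays (columns, MDA-MB-231 left of the white line). In the upper block every gene is higher on all 4 MDA-MB-231 arrays than on those of MDA-MB-453, and in the lower block PHGDH and FOXA1 split by arm.

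Mesenchymal genes were mostly higher in MDA-MB-231. Of 24 genes of the mesenchymal cytoskeleton and of epithelial-mesenchymal transition factors, 18 were measured, and 10 were higher and 1 lower. These shares were 55.6% and 5.56%, against 22.7% and 24.9% of all genes. The list median was 1.28, against -0.01 over all genes tested. MSN, which links actin to the membrane, differed by 6.77 ± 0.17, and CALD1, an actin-binding regulator of contraction, was at least 17.9-fold higher, a call lost under 1 alternative. Among the transcription factors, SNAI2, at 7.75 to 8.90 in MDA-MB-231, against 4.36 and 4.60 in MDA-MB-453, was at least 11.5-fold higher and FOXQ1 at least 13.7-fold, with FOXQ1 far higher on the MDA-MB-231 arrays labelled knockdown than on the MDA-MB-231 controls and its call lost under 2 alternatives. ZEB1, at 5.04 to 6.52 in MDA-MB-231, against 4.22 and 4.26 in MDA-MB-453, was at least 1.89-fold higher and ZEB2 at least 1.37-fold, and both were detected on every MDA-MB-231 array and on neither of MDA-MB-453. The call of ZEB2 was lost under 6 alternatives, 4 of which leave out 1 array. SNAI1, TWIST1 and TWIST2 were on the array but not detected on 2 arrays or more. CDH2, the mesenchymal N-cadherin, went the other way: it stood at 4.35 to 4.69 in MDA-MB-231, against 8.15 and 6.54 in MDA-MB-453, at least 5.86-fold lower in MDA-MB-231. FN1, fibronectin, was detected on 2 of 4 MDA-MB-231 arrays and on neither of MDA-MB-453, and was not called (adjusted p = 0.0571).

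Caveolar genes were mostly higher in MDA-MB-231. Of 9 genes 8 were measured, 6 of them higher (75%) and 2 lower (25%), against 22.7% and 24.9% of all genes. The list median was 4.55. Among the 3 list members detected on all 6 arrays the median was -0.86. Beside CAV1 and CAVIN1, CAVIN3 was at least 90.9-fold higher and CAVIN2 at least 14.5-fold, CAV2 differed by 4.75 ± 0.23 and the membrane-bending ATPase EHD2 by 3.16 ± 0.28. The adaptor proteins PACSIN2 and PACSIN3, which also act outside caveolae, were lower, at -1.01 ± 0.18 and -0.86 ± 0.28, the call of PACSIN3 being lost under 7 alternatives.

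Matrix proteins and proteases were higher in MDA-MB-231 for 25 of 33 measured genes and lower for 3, with a median of 3.07. That is 75.8% and 9.09%, against 22.7% and 24.9% of all genes. The list held 40 genes, and 5 on the array were not measured because they were not detected. LAMB3, a chain of laminin-332, was at least 61.4-fold higher, and COL8A1 at least 20.7-fold and the basement membrane collagen COL4A1 at least 22.9-fold. The other kept LAMB3 probes, also called, gave much smaller differences of 1.04 and 1.04. The protease PLAT was at least 41.6-fold higher, its inhibitor SERPINE2 differed by 5.96 ± 0.26, and the receptor of urokinase, PLAUR, by 3.22 ± 0.18. TIMP2, an inhibitor of metalloproteinases, stood at 10.73 to 12.51 in MDA-MB-231, against 5.57 and 5.20 in MDA-MB-453, a difference of 6.26 ± 0.30. MMP15, a membrane-bound metalloproteinase, was at least 5.34-fold lower in MDA-MB-231, and LAMB2 was lower by a difference of -1.01 ± 0.20, a call lost in the fit without the arm term.

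Integrins and focal adhesion proteins were higher in MDA-MB-231 for 13 of 21 measured genes (61.9%) and lower for 0, against 22.7% and 24.9% of all genes. ITGA5, the alpha chain of the fibronectin receptor, was at least 31.1-fold higher, its partner ITGB1 differed by 3.33 ± 0.24, and ITGA3 by 2.23 ± 0.17. The focal adhesion proteins PARVA, VCL and ZYX differed by 2.90 ± 0.18, 2.13 ± 0.20 and 1.94 ± 0.18. Among annexins and S100 proteins, 12 of 22 were higher (54.5%) and 5 lower (22.7%), so the lower share lay near that of all genes. ANXA3 and ANXA11 were higher by 5.37 ± 0.20 and 3.99 ± 0.17, and S100A10 by 2.30 ± 0.20. S100A9 and S100A8, the subunits of calprotectin, were lower by at least 9.41-fold and at least 6.42-fold, and S100A14 was lower by a difference of -3.44 ± 0.22.

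The list of YAP and TEAD targets also holds pathway members that are not counted as targets, such as YAP1 and TEAD3. Of its 23 measured genes 15 were higher in MDA-MB-231 (65.2%), YAP1 among them, and 1 was lower (4.35%), against 22.7% and 24.9% of all genes. The lower one was TEAD3 (-0.71 ± 0.18), whose call was lost without 1 MDA-MB-231 control. Beside CCN2 and AXL, NT5E, an ectoenzyme that makes adenosine, was at least 87.5-fold higher, ANKRD1 at least 36.6-fold, CCN1 differed by 5.64 ± 0.19 and the clotting initiator F3 by 4.83 ± 0.19. YAP1 itself differed by 0.60 ± 0.20, a call lost under 7 alternatives. The list overlaps others, since AXL is also a receptor tyrosine kinase and NT5E and TGFB2 stand in other lists.

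The TGF-beta pathway was split, with 9 of 21 measured genes higher (42.9%) and 10 lower (47.6%), against 22.7% and 24.9% of all genes. Among ligands, TGFB2 was at least 4.48-fold higher in MDA-MB-231, whereas TGFB3 stood at 4.85 to 6.22 in MDA-MB-231, against 11.73 and 11.71 in MDA-MB-453, a difference of -6.22 ± 0.29, and INHBB, a subunit of activin, differed by -4.43 ± 0.53. Among receptors, TGFBR2 and TGFBR3 (a difference of 3.60 ± 0.33) were higher and ACVR1B was lower (-1.57 ± 0.18). The signal transducer SMAD3 was higher by 3.54 ± 0.18, while SMAD4 and SMAD2 were lower, at -0.65 ± 0.22 and -0.90 ± 0.19, the call of SMAD4 being lost under 9 alternatives. The latency protein LTBP2 was higher (3.45 ± 0.18) and LTBP3 lower (-2.56 ± 0.26). TGFB1 was on the array but not detected on 2 arrays or more.

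Receptor tyrosine kinases differed between the lines in both directions. Of 39 genes 27 were measured, with 9 higher and 9 lower in MDA-MB-231, 33.3% each, against 22.7% and 24.9% of all genes. Beside AXL, MERTK of the same family was at least 9.54-fold higher, the ephrin receptor EPHA2 differed by 4.93 ± 0.26, EGFR by 2.90 ± 0.20 and MET, the receptor of hepatocyte growth factor, by 2.52 ± 0.29. EGFR stood at 8.24 to 9.06 in MDA-MB-231, against 5.83 and 5.66 in MDA-MB-453. ERBB2 stood at 8.21 to 8.64 in MDA-MB-231, against 13.07 and 12.90 in MDA-MB-453 and its partner ERBB3 at 5.03 to 6.67 in MDA-MB-231, against 11.74 and 11.10 in MDA-MB-453, with differences of -4.56 ± 0.17 and -5.52 ± 0.24. The receptors ROR2, EPHA1 and EPHB3 were detected on no MDA-MB-231 array and were lower by at least 9.94-fold, 9.78-fold and 4.08-fold, and the collagen receptor DDR1 was lower by a difference of -3.58 ± 0.38. That value rests on 1 of 3 DDR1 probes, the others giving 0.07 and -0.33 and not being called.

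ERBB2 lies on chromosome 17 among genes that are often amplified with it in breast tumours. Of 12 genes in this stretch 9 were measured, and 5 were lower (55.6%, against 24.9% of all genes) and 0 higher in MDA-MB-231. The 5 stand next to each other among the measured genes, in the order STARD3 (-1.34 ± 0.25), PGAP3 (-2.89 ± 0.17), ERBB2, MIEN1 (-2.12 ± 0.24) and GRB7 (-4.04 ± 0.37). The measured genes on either side were not called: PPP1R1B, CDK12 and MED1 on 1 side had adjusted p-values of 0.264, 0.832 and 0.368, and IKZF3 on the other 0.750. Copy number was not measured.

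ERK targets and feedback regulators of the MAPK pathway were higher in MDA-MB-231 for 14 of 22 measured genes and lower for 2, with a median of 1.61. That is 63.6% and 9.09%, against 22.7% and 24.9% of all genes. PHLDA1, an early response gene, differed by 7.12 ± 0.24, and the AP-1 subunit FOSL1 was at least 49.3-fold higher. The ETS factors ETV5 and ETV4 were higher by 5.16 ± 0.31 and 3.47 ± 0.18, and SPRY2, a feedback inhibitor of receptor signalling, by 4.01 ± 0.21. SPRY1 and SPRED2, inhibitors of the same pathway, were lower, at -1.85 ± 0.58 and -1.83 ± 0.19, the call of SPRY1 being lost under 8 alternatives, while DUSP5, a phosphatase of ERK, was not called (adjusted p = 0.879).

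Inflammatory cytokines were higher in MDA-MB-231 and for the most part not detected in MDA-MB-453. Of 25 measured genes 19 were higher and 1, the chemokine CCL5 (-0.88 ± 0.20, a call lost with a replicate block), lower, with a median of 2.39. The shares were 76% and 4%, against 22.7% and 24.9% of all genes. Among all 13022 genes 5.71% were detected on all MDA-MB-231 arrays and on neither of MDA-MB-453, and in this list 16 of 25 were. IL1B stood at 10.83 and 10.99 on the knockdown-labelled arrays of MDA-MB-231, 11.63 and 11.56 on its controls, and 4.30 and 4.28 on the knockdown-labelled and control arrays of MDA-MB-453, at least 83.7-fold higher. CXCL1 and CXCL2, neutrophil chemokines, were higher by at least 43.3-fold and at least 10.2-fold, and IL11 differed by 4.76 ± 0.17. Averaged over the arms, IL6 was at least 27.3-fold higher and the signalling protein IRAK2 at least 27.2-fold. The line difference of IL6 and IRAK2 was larger among arrays labelled knockdown than among controls, by 3.44 and 1.67. Among subunits of NF-kB, NFKB2 was higher by 2.34 ± 0.18 and RELB at least 3.79-fold, and NFKB1 was not called (adjusted p = 0.954). Of its inhibitors, TNFAIP3 was at least 2.72-fold higher and NFKBIA was not called (adjusted p = 0.831).

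Interferon-stimulated genes were divided between the lines, with 15 of 39 higher (38.5%) and 13 lower (33.3%) in MDA-MB-231 and a median of -0.09. Both shares lay above the 22.7% and 24.9% of all genes. The membrane proteins IFITM3 and IFITM1 were higher, by 6.68 ± 0.37 and 3.95 ± 0.47, but are close relatives whose probes may share transcripts. The DNA sensor IFI16 was higher by 4.07 ± 0.27, the ubiquitin ligase HERC5 by 3.86 ± 0.25, and the GTPase GBP1 at least 8.03-fold. USP18, which removes ISG15 from proteins, stood at 4.41 to 4.75 in MDA-MB-231, against 8.60 and 8.15 in MDA-MB-453, and IFI6, IRF7, OAS3 and OAS1 were lower, at -2.79 ± 0.19, -2.77 ± 0.36, -2.48 ± 0.19 and -2.38 ± 0.20. Among 16 measured genes of MHC class I presentation, 7 were higher (43.8%) and 2 lower (12.5%), against 22.7% and 24.9% of all genes. TAP2, a subunit of the peptide transporter, was higher by 3.14 ± 0.36 and HLA-F by 2.81 ± 0.27, HLA-C was lower (-1.86 ± 0.21), and B2M, the invariant light chain, stood at 12.62 to 13.29 in MDA-MB-231, against 13.02 and 12.85 in MDA-MB-453 and was not called (adjusted p = 0.858). HLA transcripts are similar enough for their probes to share signal.

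Luminal genes were lower in MDA-MB-231. Of 40 genes of the luminal program 29 were measured, and 24 were lower and 0 higher, with a median of -3.10, where 24.9% of all genes were lower. TFAP2B, a transcription factor of luminal cells, was at least 54.0-fold lower and AZGP1, a secreted zinc-binding glycoprotein, at least 44.1-fold. A second TFAP2B probe gave a difference of only -1.29. GATA3 stood at 5.51 and 5.42 on the knockdown-labelled arrays of MDA-MB-231, 4.82 and 5.05 on its controls, and 11.19 and 10.73 on the knockdown-labelled and control arrays of MDA-MB-453, a difference of -5.76 ± 0.18. CREB3L4, a membrane-bound transcription factor, was lower by a difference of -5.52 ± 0.20, and SPDEF, an ETS factor of luminal cells, by a difference of -5.31 ± 0.85. The protease TMPRSS2, which androgen induces in prostate, was at least 8.84-fold lower, and XBP1, a factor of the secretory pathway, stood at 11.19 to 11.46 in MDA-MB-231, against 14.19 and 14.59 in MDA-MB-453. ESR1 and PGR, the oestrogen and progesterone receptors, were not detected on 2 arrays or more, nor were KLK2 and KLK3. FKBP5, TFAP2C and ALCAM were not called, at adjusted p-values of 0.183, 0.347 and 0.681.

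Keratins did not follow the luminal pattern. Of 25 keratins 9 were measured, 5 of them higher (55.6%) and 1, KRT19, lower (11.1%) in MDA-MB-231, against 22.7% and 24.9% of all genes. KRT80 was higher by 4.15 ± 0.55 and KRT18, the type I keratin of simple epithelia, by 0.87 ± 0.19. KRT8, its type II partner, stood at 9.46 to 11.06 in MDA-MB-231, against 11.13 and 10.30 in MDA-MB-453 and was not called (adjusted p = 0.0856), nor was KRT7 (adjusted p = 0.371). The basal keratins KRT5 and KRT14 were on the array and not detected on 2 arrays or more. KRT18 lost its call in 1 alternative.

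Junction genes differed member by member. Among adherens junctions and desmosomes, 7 of 19 measured genes were lower and 4 higher. That is 36.8% and 21.1%, against 24.9% and 22.7% of all genes, so the higher share lay near that of all genes. CDH1, E-cadherin, stood at 6.08 and 5.57 on the knockdown-labelled arrays of MDA-MB-231, 4.26 and 4.22 on its controls, and 8.70 and 8.55 on the knockdown-labelled and control arrays of MDA-MB-453, and was detected on the MDA-MB-231 arrays labelled knockdown but on neither MDA-MB-231 control. Its difference was -3.59 ± 0.34 (adjusted p = 1.34e-04). The desmosomal plaque protein PKP3 was lower by a difference of -2.97 ± 0.28 and NECTIN4 at least 3.33-fold, whereas PKP2 was at least 4.22-fold higher and the desmosomal cadherin DSG2 higher by 1.71 ± 0.22. JUP, plakoglobin, stood at 10.79 and 10.54 on the knockdown-labelled arrays of MDA-MB-231, 5.15 and 4.78 on its controls, and 10.84 and 10.50 on the knockdown-labelled and control arrays of MDA-MB-453, and was not called (adjusted p = 0.0533). The catenins CTNNB1 and CTNNA1 were higher, by 1.20 ± 0.21 and 0.81 ± 0.19, the call of CTNNA1 being lost under 2 alternatives.

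Tight junction and polarity genes were lower for 10 of 22 measured members and higher for 6. These shares were 45.5% and 27.3%, against 24.9% and 22.7% of all genes. CRB3, an apical polarity protein, stood at 4.40 to 4.91 in MDA-MB-231, against 9.90 and 9.95 in MDA-MB-453, a difference of -5.29 ± 0.19, and CLDN3 differed by -5.13 ± 0.33. MARVELD3 and MARVELD2, membrane proteins of tight junctions, were lower by at least 23.0-fold and at least 3.90-fold, and the polarity protein LLGL2 at least 6.48-fold. Against these, CLDN1 was at least 3.58-fold higher and CLDN12 and the polarity protein PARD3 were higher by 1.06 ± 0.24 and 1.15 ± 0.21. The scaffold TJP1 stood at 8.68 to 9.04 in MDA-MB-231, against 9.37 and 9.05 in MDA-MB-453 and was not called (adjusted p = 0.174).

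Epithelial surface proteins, splicing factors and transcription factors were lower in MDA-MB-231 for 24 of 29 measured genes, of 37 in the list, with a median of -3.39. That is 82.8%, against 24.9% of all genes. OVOL2 and GRHL2, transcription factors that keep cells epithelial, were lower by at least 55.9-fold and at least 17.3-fold, and GRHL3 at least 3.94-fold. The membrane serine protease ST14 was at least 21.6-fold lower and PRSS8, another such protease, differed by -6.31 ± 0.19. EPCAM, an epithelial adhesion molecule, stood at 7.14 and 7.08 on the knockdown-labelled arrays of MDA-MB-231, 8.19 and 8.25 on its controls, and 13.15 and 13.28 on the knockdown-labelled and control arrays of MDA-MB-453, a difference of -5.55 ± 0.25. PROM2, a membrane protein of epithelial protrusions, was lower by a difference of -5.72 ± 0.18, and ESRP1, which directs epithelial splicing, by a difference of -3.78 ± 0.17. KLF5 was the 1 member called higher, at least 1.96-fold, and MUC1 and MYO6 were not called (adjusted p = 0.181 and 0.796).

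**Figure D3:**
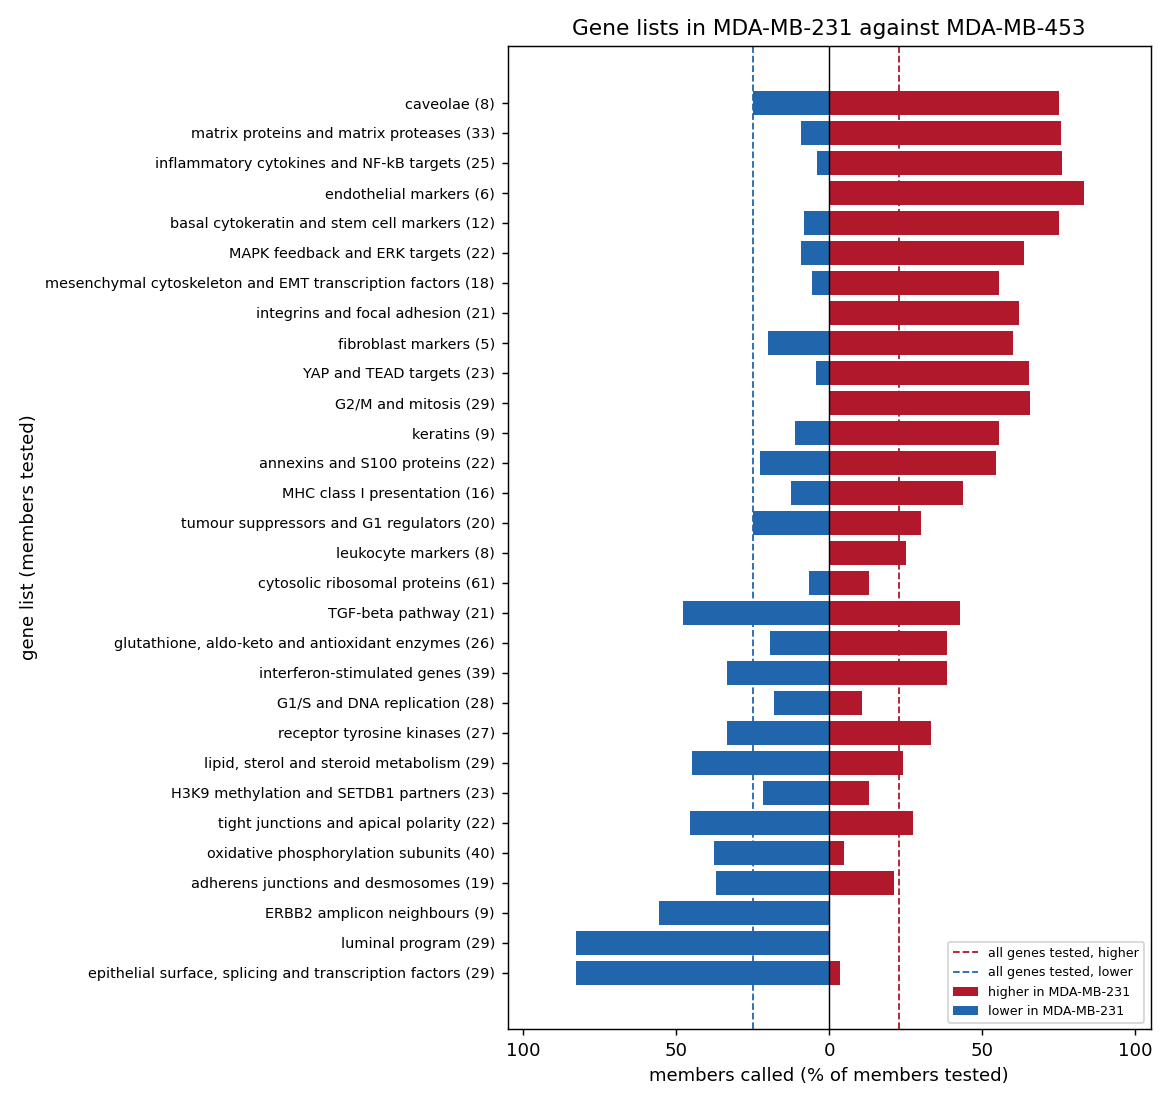
Share of measured members called higher (right, red) or lower (left, blue) in MDA-MB-231 for 30 gene lists, ordered by median difference, with the number of members measured in brackets. Dashed lines mark 22.7% higher and 24.9% lower over all 13022 genes. The endothelial list of 6 measured members reaches furthest right. Caveolar, matrix, inflammatory and basal lists also reach far right, and the luminal and epithelial surface lists far left.

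Basal and stem cell markers were higher in MDA-MB-231 for 9 of 12 measured genes (75%), of 19 in the list, and lower for 1 (8.33%). Over all genes the shares were 22.7% and 24.9%. Beside CD44 and NT5E, the aldehyde dehydrogenase ALDH1A3 was at least 8.12-fold higher, PROCR, the protein C receptor, differed by 3.68 ± 0.20 and SOX9 by 2.09 ± 0.18. MME, the surface peptidase CD10, was at least 6.39-fold lower. BMI1, a Polycomb protein named in the series title, was higher by 0.64 ± 0.19 (adjusted p = 0.0258), with values of 9.91 and 10.24 on the knockdown-labelled arrays of MDA-MB-231, 11.16 and 11.36 on its controls, and 9.46 and 10.59 on the knockdown-labelled and control arrays of MDA-MB-453. The MDA-MB-453 control lay above both MDA-MB-231 arrays labelled knockdown, so the lines overlapped, and the call was lost under 6 alternatives. MYC, also named there, stood at 11.48 to 11.64 in MDA-MB-231, against 9.46 and 9.86 in MDA-MB-453, a difference of 1.94 ± 0.18.

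Lipid, sterol and steroid genes were lower in MDA-MB-231 for 13 of 29 measured members and higher for 7. These shares were 44.8% and 24.1%, against 24.9% and 22.7% of all genes. ABCC11, a transporter of apocrine glands, and FABP7, which binds fatty acids, were lower by at least 64.5-fold and at least 23.4-fold, FASN, the fatty acid synthase, was lower by a difference of -1.51 ± 0.26 and the squalene epoxidase SQLE by a difference of -1.76 ± 0.19. PLIN2, the coat protein of lipid droplets, was higher by 5.78 ± 0.25, HSD17B11 by 4.93 ± 0.19, and ACSL4, which activates arachidonic acid, at least 34.4-fold. A second ACSL4 probe gave a difference of only 1.03. Another acyl-CoA synthetase, ACSL1, was lower (-2.58 ± 0.21).

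Among glutathione, aldo-keto and antioxidant enzymes, 10 of 26 were higher (38.5%) and 5 lower (19.2%), against 22.7% and 24.9% of all genes. AKR1C3, which converts steroids and prostaglandins, differed by 5.57 ± 0.48, and GSTP1, the pi-class glutathione transferase, stood at 11.68 to 12.71 in MDA-MB-231, against 7.56 and 7.95 in MDA-MB-453, a difference of 4.46 ± 0.25. GSTM3 was at least 9.88-fold higher and GSTM2 higher by 3.96 ± 0.17, though GSTM genes are similar and may share signal. The cystine transporter SLC7A11 and the haem oxygenase HMOX1 were lower, at -1.68 ± 0.31 and -1.24 ± 0.17.

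Tumour suppressors and regulators of the G1 phase were called about as often as all genes, 55% against 47.6%. CCND2, a D-type cyclin, was at least 56.7-fold higher in MDA-MB-231 and its partner kinase CDK6 at least 27.8-fold. CCND1 was higher by 1.94 ± 0.17 and the inhibitor CDKN1A by 2.51 ± 0.18, while CDK4 stood at 11.48 to 12.20 in MDA-MB-231, against 11.94 and 11.77 in MDA-MB-453 and was not called (adjusted p = 0.945). CDKN2A, the inhibitor of CDK4 and CDK6, stood at 4.31 to 4.47 in MDA-MB-231, against 6.92 and 7.01 in MDA-MB-453 and was at least 4.51-fold lower in MDA-MB-231, where it was not detected. Its chromosomal neighbours were lower too. CDKN2B was at least 1.53-fold lower and not detected in MDA-MB-231, a call lost under 7 alternatives, and MTAP, an enzyme of methionine salvage, was lower by a difference of -1.85 ± 0.25 and detected on 2 of 4 MDA-MB-231 arrays. In all, 6 of 20 measured members of this list were higher and 5 lower.

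Genes of mitosis were higher in MDA-MB-231, and those of replication were mostly not called. Of 29 G2/M genes 19 were higher (65.5%, against 22.7% of all genes) and 0 lower, with a median of 0.99. The checkpoint kinase BUB1 differed by 2.08 ± 0.20, AURKB and AURKA by 2.03 ± 0.18 and 1.66 ± 0.20 and the topoisomerase TOP2A by 1.81 ± 0.26. Of 28 measured members of the G1/S and replication list 3 were higher, among them TYMS, the thymidylate synthase (1.38 ± 0.17), and 5 lower, among them E2F2 (-2.17 ± 0.17). That list was called less often than all genes, 28.6% against 47.6%.

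For SETDB1, the gene the hairpins target, all MDA-MB-231 arrays lay below both MDA-MB-453 arrays, whatever their arm, and the difference was -1.53 ± 0.17 (adjusted p = 3.00e-04). The difference was -1.48 among arrays labelled knockdown and -1.57 among controls. Of 23 genes of H3K9 methylation and SETDB1 partners 3 were higher and 5 lower, or 34.8% called, against 47.6% of all genes. MORC2 and SUV39H1 were lower, at -1.11 ± 0.19 and -0.97 ± 0.17, and TASOR was higher, at 1.19 ± 0.26, whereas TRIM28 and ATF7IP were not called (adjusted p = 0.685 and 0.119). Of 61 measured cytosolic ribosomal protein genes 8 were higher and 4 lower, or 19.7% called, against 47.6% of all genes. Of 40 oxidative phosphorylation subunits 2 were higher (5%) and 15 lower (37.5%), against 22.7% and 24.9% of all genes, with a list median of -0.42. NDUFA6 and NDUFC1 of complex I were lower, at -1.59 ± 0.20 and -1.51 ± 0.33.

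Markers of leukocytes, fibroblasts and endothelium were measured for some of their list members. Of 13 leukocyte markers on the array, 9 were detected on at least 1 MDA-MB-231 array and 7 on at least 1 MDA-MB-453 array, and PTPRC and CD3E were not detected on 2 arrays or more. Of the 8 measured, 2 were called higher and 0 lower, with a median of 0.16. The higher share, 25%, lay near the 22.7% of all genes. The summed linear intensity of the 8 was 3339 to 4106 in MDA-MB-231 and 440 to 607 in MDA-MB-453. A linear sum is weighted towards the brightest members. CD68, a lysosomal protein and 1 of the 2 called, stood at 11.21 to 11.45 in MDA-MB-231, against 6.47 and 5.86 in MDA-MB-453. Of 12 fibroblast markers 5 were measured, with 3 called higher (60%) and 1 lower (20%), against 22.7% and 24.9% of all genes. The lower one was COL1A1, at a difference of -1.46. ACTA2, a smooth muscle actin, was at least 4.48-fold higher and PDGFRB, a growth factor receptor, at least 1.48-fold. COL1A2, COL3A1 and LUM were not detected on 2 arrays or more, and DCN was not called (adjusted p = 0.391). Their sum was 216 to 23327 in MDA-MB-231 and 194 to 205 in MDA-MB-453, and S100A4 stood at 14.49 and 14.37 on the knockdown-labelled arrays of MDA-MB-231, 6.11 and 5.40 on its controls, and 5.06 and 4.71 on the knockdown-labelled and control arrays of MDA-MB-453. The call of S100A4 was lost under 7 alternatives, among them those without either MDA-MB-231 array labelled knockdown. Of 12 endothelial markers 6 were measured, and 5 of the 6 were called higher, where 22.7% of all genes were. Beside ESAM these were ECSCR, ENG, ROBO4 and PECAM1, at least 4.57-fold, 3.65-fold, 3.89-fold and 3.18-fold higher. The calls of ECSCR, ENG, PECAM1 and PDGFRB were lost under 8 to 10 alternatives. The line difference of these genes among arrays labelled knockdown, minus that among controls, was -4.02, -4.05, 3.25 and 1.77. ECSCR and ENG thus differed between the lines mainly among controls, and PECAM1 and PDGFRB mainly among arrays labelled knockdown. CDH5, VWF, KDR and TEK were not detected on 2 arrays or more. Their sum was 3079 to 3526 in MDA-MB-231 and 184 to 187 in MDA-MB-453, with ESAM at 11.07 to 11.55 in MDA-MB-231, against 6.24 and 5.99 in MDA-MB-453. The part of other cells in the line difference was not tested.

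Whole chromosomes stood apart in the line difference. Over the 313 measured genes of chromosome 22 the median difference was -0.86, and 55.9% of them were lower and 8.95% higher in MDA-MB-231. Over 605 genes of chromosome 16 the median was -0.66, with 51.4% lower and 8.43% higher, and over 506 genes of chromosome 10 it was 0.51, with 13.2% lower and 41.7% higher. VIM and PLAU lie on chromosome 10, and CDH1 and PRSS8 on chromosome 16. The arms, which share no array, gave -0.84 and -0.77 for chromosome 22 (labelled knockdown, then control), -0.64 and -0.61 for chromosome 16, and 0.27 and 0.71 for chromosome 10. Chromosome 13, at 0.27 over 228 genes, gave 0.04 among arrays labelled knockdown and 0.65 among controls, so its median followed the arm. Genes of a chromosome are not independent, and gene copy number was not measured.

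**Figure D4:**
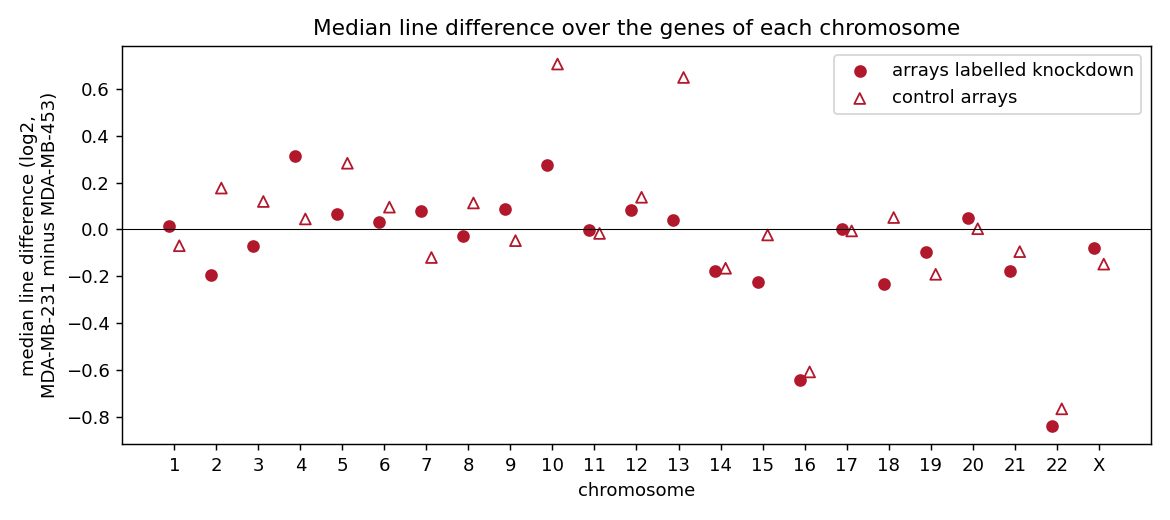
Median line difference (log2, MDA-MB-231 minus MDA-MB-453) over the measured genes of each chromosome, for arrays labelled knockdown (filled circles) and control arrays (open triangles). Chromosomes 16 and 22 lie lowest in both arms, and chromosome 10 highest among controls.

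The line difference was compared between the arms, whose arrays are disjoint although normalised together. In a fit with a mean per group, 6895 genes (52.9%) were called between the control arrays and 6635 (51%) between the arrays labelled knockdown, with 1 MDA-MB-453 array in each arm assumed to vary like the MDA-MB-231 pairs. Of the 4861 genes called in both, 4707 had the same direction and 154 the opposite one. Across genes the differences of the arms correlated at 0.833, where genes are not independent replicates. Arrays of different lines correlated at 0.757 to 0.780 across genes, arrays of opposite arms at 0.919 to 0.931 within MDA-MB-231 and at 0.982 within MDA-MB-453, and replicates at 0.990 and 0.993.

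The line by arm difference itself was called for 1766 genes (13.6%), and for 2771 under median scaling in place of quantile normalisation. ID1, an inhibitor of differentiation factors, was lower in MDA-MB-231 by -2.32 among controls and higher by 4.37 among arrays labelled knockdown (adjusted p of the difference = 1.28e-05). CPE, a carboxypeptidase that processes hormones, likewise gave -2.37 and 3.60, and the hemidesmosomal integrin ITGB4 -1.10 and 2.67. ID1 and CPE had the largest line by arm differences among the 154 genes, and ITGB4 the largest among list members, so these were named after their values were seen. For VIM, AXL, CAV1, RAB25 and PIP the line by arm difference lay between -0.43 (PIP) and 0.30 (CAV1).

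**Figure D5:**
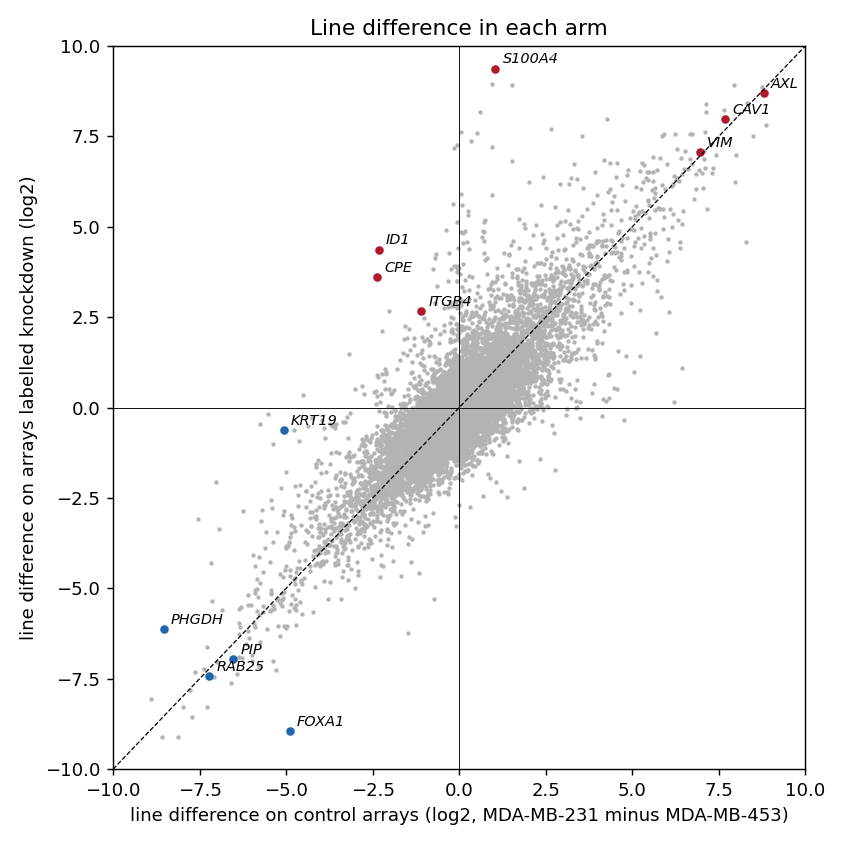
Line difference of each gene among control arrays (x axis) and among arrays labelled knockdown (y axis), both log2, MDA-MB-231 minus MDA-MB-453, with the dashed line marking equal values. VIM, AXL, CAV1, RAB25 and PIP lie near that line, while KRT19, FOXA1, PHGDH, S100A4, ITGB4, ID1 and CPE lie off it.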

How the data were processed

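Expression was measured on Illumina bead arrays in 4 samples of MDA-MB-231 and 2 of MDA-MB-453, grouped by the labels. The deposited intensities are probe brightnesses without normalisation, per the file headers, beside a detection p-value for each probe and array in the same deposited table. The authors also deposited processed log2 values, which equalled the quantile-normalised log2 of the intensities to within 5.26e-09 and served as an alternative. The background step of the scanner software is not given in the sources used here.

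Intensities were background-corrected by normexp from the detection p-values with an offset of 16, quantile-normalised and taken to log2 (neqc, limma 3.58.1, R 4.3.3). Probes with a detection p below 0.05 on at least 2 arrays were kept, 17668 of 48107. Of all probes 30113 had 1 gene symbol in the platform annotation, 8 had several and 17986 had none, and 30074 were matched in RefSeq. The probe with the highest mean stood for a gene, which gave 13022 genes. Of 3593 genes with more than 1 kept probe, 32 had probes called in opposite directions. Line and arm were additive terms of a limma fit with moderated variances, and p-values were adjusted by Benjamini-Hochberg with a threshold of 0.05. A second fit with a mean per group gave the line difference in each arm and the line by arm difference. The number of arrays sets the precision. The scripts were tested on simulated data. Alternatives covered background correction, offset, normalisation, the filter, the probe rule, the processed values, the model and each array left out.

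The gene lists were chosen with earlier results of these data known. Named genes were the 15 with the largest called difference in each direction without overlap between lines, excluding genes known by a locus or reading-frame number, the 6 markers, SETDB1, BMI1 and MYC, and from each list up to 6 called members in each direction and up to 6 not called, not detected or against the list. Further list members outside this rule, named for their role after their values were seen, were COL4A1, COL8A1, CXCL2, EPHB3, ESRP1, ETV4, FASN, GRHL2, GRHL3, MARVELD2, NFKB2, PLAT, PLAUR, RELB, S100A10, SMAD2, SMAD4, SPDEF, SQLE, ST14, TGFB2, TMPRSS2, TNFAIP3, XBP1, YAP1, ZEB1, ZEB2 and ZYX, and the promoters shown were chosen in the same way.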

Additional observations from a re-analysis of the deposited data

Results flagged for a closer look

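The line difference of 55 of the named genes depended on the arm, by the limma test of the line by arm difference, in which the spread comes from the MDA-MB-231 pairs and each MDA-MB-453 arm is 1 array. The values below are the line difference among arrays labelled knockdown minus that among controls, in log2, so that a positive one means that MDA-MB-231 stood higher relative to MDA-MB-453 among arrays labelled knockdown. Over all genes 13.6% passed this test, or 1766, against 2771 under median scaling. The largest positive values were 8.33 for S100A4, 6.69 for ID1, 5.97 for CPE, 5.36 for JUP, 5.28 for FOXQ1 and 4.45 for KRT19. Below these stood 4.45 for SPDEF, 3.77 for ITGB4, 3.44 for IL6, 2.91 for SPRY1, 2.77 for KRT80 and 2.61 for INHBB. It was 2.58 for S100A8, 2.41 for PHGDH, 2.4 for AKR1C3, 2.24 for S100A9, 2.23 for IFITM1 and 2.18 for MUC1. Smaller values were 1.98 for KRT7, 1.68 for DDR1, 1.67 for IRAK2, 1.66 for IRF7, 1.65 for IFITM3 and 1.61 for GRB7. Then came 1.51 for CLDN3, 1.51 for TGFBR3, 1.45 for ITGA5, 1.43 for CDH1, 1.42 for CLDN1 and 1.39 for ETV5. Next were 1.32 for TIMP2, 1.27 for MET, 1.25 for EMP1, 1.24 for TGFB3, 1.11 for PKP2 and 1.11 for PKP3. The remaining positive values were 1.08 for EPHA2 and 1.04 for PLAU. Negative values were -4.05 for FOXA1, -2.97 for MME, -1.67 for TAP2, -1.57 for CDH2, -1.48 for COL4A1 and -1.41 for FABP7. Smaller negative values were -1.21 for COL8A1, -1.2 for ZEB1, -1.19 for CDKN2B, -1.12 for MYO6, -1.06 for ALDH1A3 and -1.03 for ABCC11. Among markers of other cell types the values were 3.25 for PECAM1, 1.77 for ACTA2, 1.77 for PDGFRB, -4.02 for ECSCR and -4.05 for ENG. For S100A4, KRT19, JUP, FOXQ1 and SPDEF the MDA-MB-231 arrays themselves split by arm.

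In 12 of the 234 named genes, 1 of the 4 MDA-MB-231 arrays stood apart from the other 3. The gap to the nearest array was above the critical value of Dixon's test, which chance passes in about 1 in 20 groups. The ratio of gap to range was 0.882 for ALCAM, 0.866 for ATF7IP, 0.912 for AXL, 0.891 for CDK12, 0.857 for HLA-C and 0.869 for ID2. It was 0.831 for LLGL2, 0.834 for MARVELD2, 0.853 for MYC, 0.925 for NECTIN4, 0.891 for SUV39H1 and 0.896 for YAP1.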

How the results depend on the processing

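No named gene that was called reversed direction under the alternatives tried. Among genes not called, ID1, CPE and ITGB4 gave -2.32, -2.37 and -1.10 without the MDA-MB-453 array labelled knockdown, and 4.37, 3.60 and 2.67 without the MDA-MB-453 control, each called there. The 2956 genes higher and 3246 lower in MDA-MB-231 became 2149 and 2568 in a fit without the arm term, and 3985 and 4126 with a mean per group. Leaving out 1 array gave 2381 to 3386 higher and 2642 to 3509 lower. With the replicate number as a block, 2045 were higher and 2327 lower. Across genes, replicate 1 minus replicate 2 correlated at 0.0713 between the MDA-MB-231 arms. With 2 pairs this cannot settle whether equal replicate numbers share more than a label. The line by arm difference was called for 2771 genes under median scaling in place of quantile normalisation, against 1766, and the cause was not tested. Of 208 named genes that were called, 188 kept their call and direction in every setting and 20 lost the call in at least 1. These were BMI1, CALD1, CCL5, CDKN2B, CTNNA1, ECSCR, ENG, FOXQ1, KRT18, KRT19, LAMB2, PACSIN3, PDGFRB, PECAM1, S100A4, SMAD4, SPRY1, TEAD3, YAP1 and ZEB2. The median of 23 of 30 lists kept its sign in every setting. That of the keratins became -0.06 without the detection filter, that of G1/S genes 0.22 without the MDA-MB-453 array labelled knockdown, and that of caveolar genes -0.86 over the 3 detected on all 6 arrays. The medians of the TGF-beta, glutathione, ribosomal and leukocyte lists lay near 0 and changed sign in 1 to 3 settings. Genes near background have a difference that shrinks with a larger offset, which limits sizes rather than directions.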
